A study of Mus musculus with 6 samples.

Results

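The 10 genes described here build the microvilli of the intestinal brush border or hold neighbouring microvilli together, and were chosen by function: the actin bundlers Vil1, Pls1 and Espn, the membrane linker Ezr, the tip protein Eps8, the motor Myo1a, and the intermicrovillar adhesion complex genes Cdhr2, Cdhr5, Ush1c and Myo7b. All 10 were found among the 55450 gene identifiers of the count table by symbol, and all 10 were among the 15028 genes with enough counts to be tested. The libraries were polyA RNA-seq of epithelium scraped from the small intestine, 1 mouse each, 3 control and 3 knockout. Control mice were Vil1-Cre-ERT2- Ncor1loxP/loxP and knockout mice Vil1-Cre-ERT2+ Ncor1loxP/loxP, and both genotypes also carried floxed alleles of a second corepressor gene. The labels give the same tamoxifen protocol for all 6 samples, 15 mg per 100 g body weight for 5 days from 8 to 9 weeks of age. They also give 20 days of monitoring and a cage day of 21 for all 6. Cre-ERT2 is a recombinase that tamoxifen activates, here under the promoter of villin, so the driver of the deletion is the promoter of one of the genes described. The labels do not say how much villin sequence the transgene carries, and its part in the counts under Vil1 was not tested. Only knockout mice carried the transgene, so the deletion and the transgene cannot be told apart. Which intestinal section was scraped is not in the labels either.

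A microvillus is a membrane-covered finger around a core of parallel actin filaments. Villin, plastin 1 and espin bundle the core, ezrin and myosin 1a tie it to the membrane, and EPS8 sits at the tip. The protocadherins CDHR2 and CDHR5 reach from tip to tip of neighbouring microvilli, and their tails bind a scaffold that includes harmonin (Ush1c) and the motor myosin 7b. Together these proteins pack the enterocyte's microvilli into a tight, even array.

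Total counts ran from 23476031 to 46835165 per library. Ncor1 stood at 126 ± 22.9 CPM (counts scaled to library size by TMM, which also corrects for library composition) in controls and 30.1 ± 7.02 in knockouts (SD, n = 3), a log2 fold change of -2.06 (adjusted p = 0.00045). The 7 pan-epithelial markers, such as Epcam and Cdh1, summed to between 6718 and 8555 CPM in controls and between 6292 and 7394 in knockouts. None of the 7 passed the test. Epcam itself did not overlap, at 1749.9 to 2066 CPM in controls and 1060.4 to 1472 CPM in knockouts. Its log2 fold change was -0.62 (edgeR quasi-likelihood test, adjusted p = 0.07), and -1.07 with library-size scaling alone (adjusted p = 0.0018). Krt18 was the 1 marker that separated the other way (0.78, adjusted p = 0.054, and 0.32 with library-size scaling alone). Mesenchymal and endothelial markers summed to at most 28.2 CPM in any library. In bulk tissue, fewer cells of a type and less RNA per cell cannot be told apart.

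Of the 10 genes, 5 fell in the knockout and none rose (edgeR quasi-likelihood test, adjusted p under 0.05): Vil1, Myo1a, Myo7b, Ush1c and Espn, each to about 0.434 to 0.532 of the control level. Among all genes tested 35.6% passed, of which 18.3% fell and 17.3% rose (shares of all tested). The members' median log2 fold change was -0.79, beside -0.06 over all genes tested. It was -0.43 beside 0.10 with the length and GC correction described further on, and -1.25 beside -0.49 with library-size scaling alone. In 8 of the 10 every knockout library lay below every control library, where 26.4% of all genes tested did so (50.3% did not overlap in either direction). The exceptions were Pls1 and Eps8, whose genotypes overlapped. Without control 483, knockout 423 or knockout 477, 3 of the 10 fell. Over all genes, 1990 of 15687, 2084 of 15821 and 1748 of 15923 fell in those fits, against 2752 of 15028 with all libraries. Removing the trend of fold change with exon length and GC content left 2 that fell and 1 that rose. With library-size scaling alone 9 fell, where 30.3% of all genes fell and 7.54% rose; the knockout libraries then lay below the controls in 9 of the 10 members and in 41.2% of all genes.

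**Figure D1:**
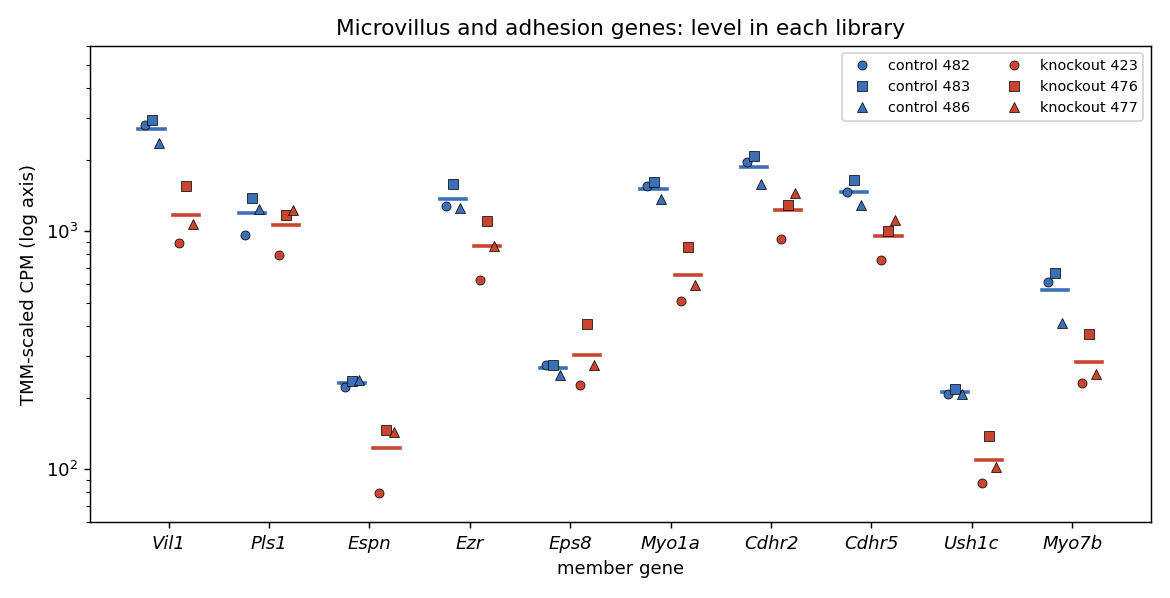
Level of each gene in each library (y axis, TMM-scaled CPM on a log axis; x axis, gene), with controls in blue, knockouts in red, 1 symbol per mouse and bars at the genotype means. Knockout points lie below all control points in 8 genes and overlap them in Pls1 and Eps8, and knockout 423 is the lowest of the knockouts in all 10.

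Vil1 (ENSMUSG00000026175, mm10 chromosome 1, 74409376 to 74435559) encodes villin, which bundles actin and, at high calcium, severs it. It stood at 2786, 2925 and 2344 CPM in controls 482, 483 and 486, against 891, 1547 and 1072 CPM in knockouts 423, 476 and 477. The knockout libraries all lay below the controls, and knockout 476 came nearest to them. The log2 fold change was -1.20 (SE 0.28, adjusted p = 0.011). Vil1 fell under all 14 alternatives to these settings, by between 0.99 and 1.65 on the log2 scale. Of its exon bases 1.38% overlap Usp37 on the other strand, which had at most 563 counts in a library against at least 18640 for Vil1.

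Myo1a (ENSMUSG00000025401, chromosome 10, 127705170 to 127720940) encodes myosin 1a, the motor that bridges the actin core to the surrounding membrane. Its levels were 1554, 1615 and 1360.2 CPM in controls 482, 483 and 486 and 509, 862 and 595 CPM in knockouts 423, 476 and 477. The order of the 6 libraries was that of Vil1. The log2 fold change was -1.20 (SE 0.27, adjusted p = 0.0084), and Myo1a also fell under all 14 alternatives, by between 0.97 and 1.65.

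The other 2 bundler genes differed from each other. Espn (ENSMUSG00000028943, chromosome 4, 152120331 to 152152371) encodes espin, a bundler that does not depend on calcium. It was even in the controls, at 222, 234 and 237 CPM, and lower in knockouts 423, 476 and 477, at 79.3, 146 and 143 CPM. It fell by 0.91 on the log2 scale (SE 0.26, adjusted p = 0.023). The call was lost without control 483 (adjusted p = 0.058) or knockout 423 (0.062), and after removal of the length and GC trend the log2 fold change was -0.05 (adjusted p = 0.91).

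Pls1 (ENSMUSG00000049493, chromosome 9, 95752642 to 95845311) encodes plastin 1, also called fimbrin, the third core bundler. Controls 482, 483 and 486 stood at 962, 1377 and 1246 CPM and knockouts 423, 476 and 477 at 797, 1165 and 1227 CPM. Knockouts 476 and 477 lay inside the control range and knockout 423 below it. The log2 fold change was -0.17 (adjusted p = 0.64), with a 95% interval from -0.76 to 0.42. With library-size scaling alone it was -0.62 and Pls1 fell (adjusted p = 0.03).

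Ezr (ENSMUSG00000052397, chromosome 17, 6738041 to 6782784) encodes ezrin, which links the core to membrane proteins. It stood at 1271, 1581 and 1247 CPM in controls 482, 483 and 486, against 622, 1105 and 863 CPM in knockouts 423, 476 and 477, with no overlap. The difference did not pass the test (log2 fold change -0.66, SE 0.27, adjusted p = 0.083, 95% interval from -1.27 to -0.05). Ezr fell by 1.12 with library-size scaling alone (adjusted p = 0.0062).

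Eps8 (ENSMUSG00000015766, chromosome 6, 137477245 to 137654876) encodes the capping and bundling protein of the microvillus tip. It was at 275, 274 and 249 CPM in controls 482, 483 and 486, against 226, 408 and 274 CPM in knockouts 423, 476 and 477. One knockout library lay below the controls, one within them and one above. The log2 fold change was 0.19 (adjusted p = 0.59, 95% interval from -0.38 to 0.75); it was -0.26 with library-size scaling alone and -0.07 without knockout 476. After removal of the length and GC trend it was 0.77 and Eps8 rose (adjusted p = 0.041).

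The adhesion complex held 2 genes that fell and 2 that did not pass the test, and in all 4 the knockout libraries lay below the controls. Cdhr2 (ENSMUSG00000034918, chromosome 13, 54701461 to 54736662), one of the 2 protocadherins, stood at 1945, 2063 and 1584 CPM in controls 482, 483 and 486, against 929, 1292 and 1453 CPM in knockouts 423, 476 and 477. Cdhr5 (ENSMUSG00000025497, chromosome 7, 141269083 to 141276786), its partner in the link between microvilli, stood at 1460.1, 1634 and 1293 CPM in the same controls and at 759, 1005 and 1112 CPM in the same knockouts. The pair had the same log2 fold change, -0.61 (SE 0.26 and 0.25), and neither passed (adjusted p of 0.095 and 0.079, 95% intervals from -1.19 to -0.02 and from -1.16 to -0.06). DESeq2, by which 19.7% of all genes fell and 20.1% rose, called Cdhr5 (adjusted p = 0.047), and both fell with library-size scaling alone, by 1.08.

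Ush1c (ENSMUSG00000030838, chromosome 7, 46195350 to 46238503) encodes harmonin, the scaffold that binds the protocadherin tails. Its controls were close together at 207, 217 and 208 CPM, and knockouts 423, 476 and 477 stood at 88.1, 138 and 102 CPM. It fell by 0.94 (SE 0.22, adjusted p = 0.011); the call was lost without knockout 477 (adjusted p = 0.055) and with the length and GC correction (-0.59, adjusted p = 0.066).

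Myo7b (ENSMUSG00000024388, chromosome 18, 31959234 to 32036961) encodes the motor that carries the complex to the microvillus tips. It stood at 614, 670 and 413 CPM in controls 482, 483 and 486, against 230, 369 and 251 CPM in knockouts 423, 476 and 477. Control 486 was nearer to knockout 476 than to the other controls. It fell by 1.00 (SE 0.28, adjusted p = 0.022); the call was lost without control 482, control 483, knockout 423 or knockout 477 (adjusted p of 0.054, 0.077, 0.079 and 0.086) and with the length and GC correction (-0.43, adjusted p = 0.21).

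**Figure D2:**
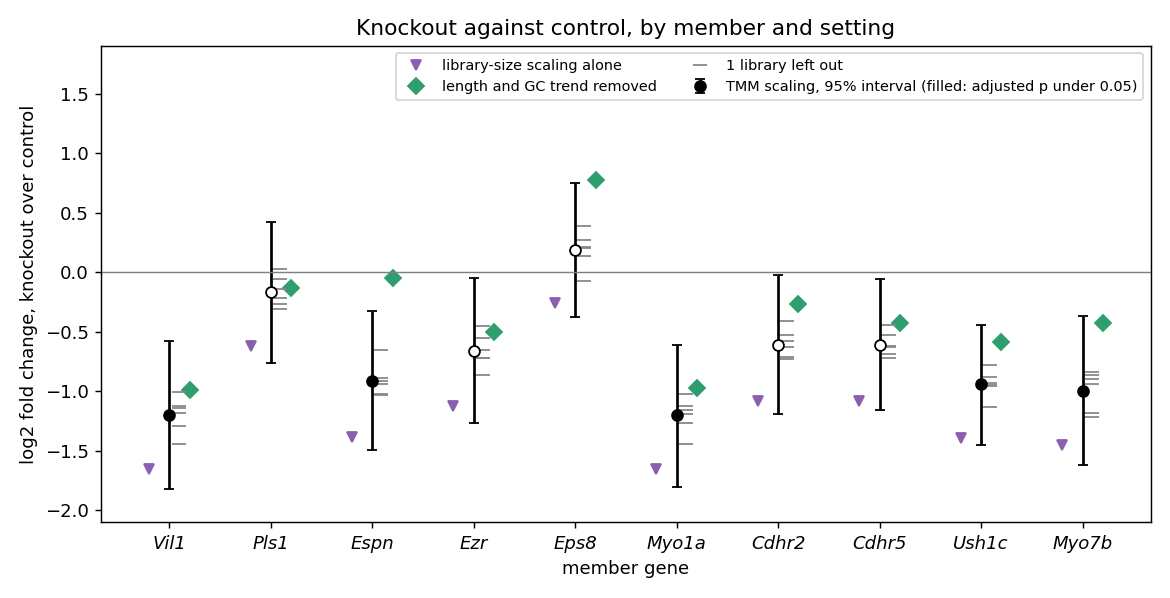
Log2 fold change of knockout over control (y axis) for each gene (x axis): circles with 95% intervals for TMM scaling, filled where the gene passed the test, grey dashes with 1 library left out, triangles for library-size scaling alone and diamonds after removal of the length and GC trend. Vil1 and Myo1a stay at or below -0.97 in every setting shown, whereas Espn runs from -1.38 to -0.05.

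Long genes had lower fold changes in these libraries, which touches several of the calls above. Over the 15018 tested genes with an exon length, the Spearman correlation of log2 fold change with length was -0.375, and genes are not independent replicates. With GC content the correlation was -0.0674. The correction removed both trends together, so the part of each in a lost call was not tested. Among the 10 genes exon length ran from 2739 bases in Cdhr5 to 12355 in Eps8, with 8272 in Espn and 6621 in Myo7b. Vil1 and Myo1a, at 3551 and 3714 bases, were shorter than Myo7b, Espn and Eps8, and both still fell after the trend was removed (log2 fold changes of -0.99 and -0.97, adjusted p of 0.025 and 0.021). With that removal, 13.3% of all genes tested fell and 18% rose. Whether these trends arose in the tissue or in the libraries was not tested.

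The 3 knockout mice were not alike. Knockout 423 was the lowest of the 3 in all 10 genes, and knockout 476 was the highest in 7 and knockout 477 in the other 3 (Pls1, Cdhr2 and Cdhr5). In the same library the 8 crypt stem and proliferation markers, such as Olfm4 and Mki67, summed to 275 CPM, against 46.2 and 41.9 in knockouts 476 and 477 and between 53.9 and 141 in controls. Olfm4 alone made up 189 of those 275 CPM. In knockout 423 Top2a (22 CPM), Ccnb1 (10.8) and Birc5 (29.9) also stood above every control. The highest control values of these genes were 17, 2.47 and 10.6 CPM, all in control 482. Mki67 stood at 16.4 CPM in knockout 423, below the 22.6 CPM of control 482, and Smoc2, Lgr5 and Ascl2 were below control 482 too. None of the 7 markers tested passed between the genotypes. The part of crypt cells in the lower level of knockout 423 was not tested. Without knockout 423, Vil1 and Myo1a fell by 1.01 and 1.02 (adjusted p of 0.038 and 0.032) and Ush1c by 0.78 (adjusted p = 0.046), and the log2 fold change of Pls1 turned to 0.03.

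Markers of other cell types also passed the test, where 18.3% of all genes tested fell and 17.3% rose. The counts by list are set against those shares, and counts of 1 or 2 genes are not read as a change of a cell type. All 10 tuft cell markers fell, from sums of 126 to 368 CPM in controls to 3.11 to 13.6 CPM in knockouts, and Pou2f3, Dclk1, Gnat3 and Il25 each had no count in at least 1 knockout library. Tuft cells carry long microvilli of their own; their part in the levels given here was not tested. Of 10 enterocyte markers 3 rose (Fabp1, Fabp2 and Apoa4) and 3 fell (Anpep, Lct and Slc5a1), and of 6 villus tip markers 1 rose and 2 fell. Of 6 Paneth cell markers 4 fell (Ang4, Itln1, Defa24 and Defa30), with sums from 1028 to 4934 CPM in controls and from 725 to 1204 in knockouts. Of 7 goblet cell markers 3 fell (Muc2, Fcgbp and Clca1) and 2 rose (Tff3 and Agr2), and of 7 enteroendocrine markers 2 fell (Gip and Sst) and 1 rose (Tph1). Of 8 leukocyte markers 2 fell (Ptprc and Itgam), with sums from 98.4 to 367 CPM in controls and from 42.3 to 146 in knockouts. The part of these cells in the members' levels was not tested. Of the exon bases of Apoa4 and Itgam, 69.8% and 68.7% overlap other genes, and the effect of that overlap on their counts was not tested.

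Ratios taken inside each library do not depend on how libraries are scaled. The log2 ratio of Myo1a to Vil1 (counts per kilobase of exon) was -0.91, -0.92 and -0.85 in controls 482, 483 and 486 and -0.87, -0.91 and -0.91 in knockouts 423, 476 and 477. The 2 genes thus kept 1 proportion in all 6 mice while Vil1 ranged from 891 to 2925 CPM, and the genotype means differed by -0.01 (exact permutation test, two-sided, p = 0.8). The SD of that ratio over the 6 libraries was 0.028, the smallest of the 15027 other genes tested; the next smallest was 0.104. This ranking was chosen after the values were seen, and abundant genes have less counting noise. Among the 296 genes averaging 500 CPM or more the next smallest was 0.144. Vil1 and Myo1a are also close in exon length (3551 and 3714 bases) and GC content (53.2% and 53.3%). The part of that likeness in the small SD was not tested.

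Eps8 gave the opposite picture, a ratio that was tight within each genotype and apart between them. Its log2 ratio to Vil1 was -5.14, -5.22 and -5.03 in controls 482, 483 and 486 and -3.78, -3.72 and -3.77 in knockouts 423, 476 and 477, a difference of 1.37. For Pls1 the difference was 1.05, for Cdhr2 and Cdhr5 0.61 each, for Ezr 0.54, for Ush1c 0.26 and for Myo7b 0.23, and in these 7 genes every knockout ratio lay above every control ratio. Espn overlapped (difference 0.27). Each of the 7 had an exact two-sided permutation p of 0.1, the smallest that 3 against 3 allows, and 0.129 when adjusted over the 9 ratios. Because Vil1 itself was lower, 64.7% of the other genes tested also had every knockout ratio to Vil1 above every control ratio, and 3.92% had it below. Against the summed level of the other 9 members, all 3 knockout ratios lay above the control ratios in Pls1 and Eps8 and below them in Vil1 and Myo1a (adjusted p = 0.25 over the 10 ratios, exact permutation test), and the other 6 overlapped. Against the 10 members summed, 49.3% of all other genes tested had every knockout ratio above the controls and 7.16% below. Against the summed level of the 7 pan-epithelial markers, a reference chosen after the values were seen, all 3 knockout ratios of Vil1, Espn, Myo1a, Cdhr5 and Ush1c lay below their control ratios. The log2 differences were -1.15, -0.88, -1.16, -0.54 and -0.89, each with an exact two-sided permutation p of 0.1, the smallest possible, and 0.2 adjusted over the 10 ratios. The other 5 members overlapped; among all other genes 18% lay below in this way and 29% above.

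**Figure D3:**
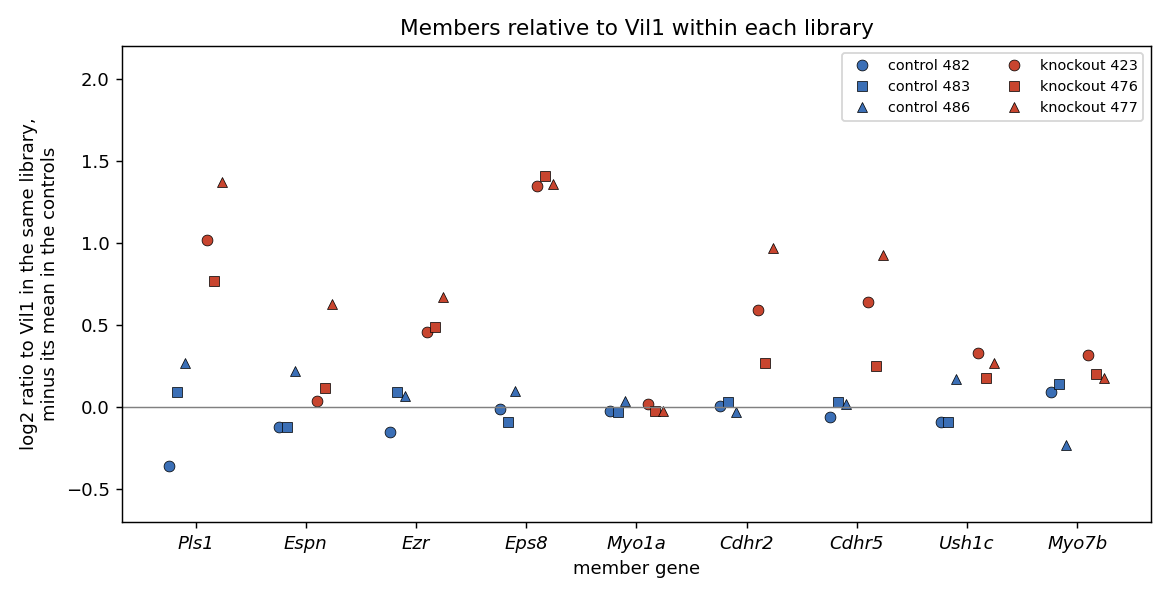
Log2 ratio of each gene to Vil1 in the same library, with the gene's control mean subtracted (y axis), for 9 genes (x axis), controls in blue and knockouts in red. Myo1a lies on the zero line in all 6 libraries, and the 3 knockout ratios of Eps8 stand together 1.37 above the control mean.

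Per kilobase of exon, Vil1 was the most abundant of the 10 in controls, at 756 ± 85.5 CPM per kb (SD, n = 3). Cdhr5 (534 ± 62.2), Cdhr2 (451 ± 60.4), Ezr (415 ± 56.6) and Myo1a (407 ± 35.9) followed, each overlapping its neighbour in that order, and then Pls1 (307 ± 54.5). Myo7b (85.4 ± 20.4), Ush1c (54.7 ± 1.42), Espn (27.9 ± 0.921) and Eps8 (21.5 ± 1.19) were far lower and did not overlap each other. In knockouts Cdhr5 (350.0 ± 66.0) and Vil1 (329 ± 95.4) overlapped at the top. Espn (14.8 ± 4.55) now stood below Eps8 (24.5 ± 7.63) without overlap, the reverse of the controls. Vil1 made up 24.0% to 25.8% of the members' summed per-kilobase level in controls and 15.9% to 20.5% in knockouts. These orders rest on annotated exon length, which joins all isoforms and is long for Eps8 and Espn.

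Because Vil1 and Myo1a moved in proportion, the sequence just upstream of their start sites is shown beside that of the protocadherin pair, which had equal fold changes, and of Pls1, which did not pass the test. The sequences are RefSeq promoters on GRCm38.p6 (the mm10 assembly), 150 bases ending before the most upstream annotated start, 5′ to 3′ on the gene's strand, with motif matches in capitals. Eps8 and Myo7b are named only.
Vil1, chr1:74409226-74409375, plus strand: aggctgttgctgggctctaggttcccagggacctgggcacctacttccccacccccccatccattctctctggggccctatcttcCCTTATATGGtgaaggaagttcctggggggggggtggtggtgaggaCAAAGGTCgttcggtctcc
Myo1a, chr10:127705020-127705169, plus strand: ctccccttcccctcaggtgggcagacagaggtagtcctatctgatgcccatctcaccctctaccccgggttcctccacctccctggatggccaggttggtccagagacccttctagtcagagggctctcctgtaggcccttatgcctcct
Cdhr2, chr13:54701311-54701460, plus strand: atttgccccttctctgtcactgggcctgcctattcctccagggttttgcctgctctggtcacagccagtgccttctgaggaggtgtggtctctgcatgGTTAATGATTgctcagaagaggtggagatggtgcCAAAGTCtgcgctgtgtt
Cdhr5, chr7:141276787-141276936, minus strand: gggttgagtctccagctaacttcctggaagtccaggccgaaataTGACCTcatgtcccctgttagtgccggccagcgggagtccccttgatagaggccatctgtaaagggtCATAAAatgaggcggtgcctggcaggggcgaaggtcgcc
Pls1, chr9:95845312-95845461, minus strand: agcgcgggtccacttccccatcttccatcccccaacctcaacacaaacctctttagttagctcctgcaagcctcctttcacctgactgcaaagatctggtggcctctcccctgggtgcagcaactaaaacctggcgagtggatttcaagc

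Motifs were searched on both strands of the whole 300-base windows, from 250 bases before to 50 after the start, of the 8 members that have one, with the sequences already in view. Vil1 held the SRF CArG box, by its name alone, and the HNF4 direct-repeat core CAAAGGTC, which stood in 1.63% and 1.17% of all 32851 windows. Cdhr2 held the HNF4-specific core CAAAGTC (4.44% of windows) and the HNF1 palindrome core, by its name alone (0.399%). Cdhr5 held the CDX core TTTATG on its reverse strand (11.9%), as did 1 of the 3 windows of Espn. The nuclear receptor half-site AGGTCA stood in Cdhr2 and Cdhr5 (16.3% of all windows), in Cdhr2 further upstream than the stretch printed. None of the 8 held TATAAA (13.6%), and neither Myo1a nor Pls1, Ezr or Ush1c held any of the 7 motifs. A match here is a run of letters, not a shown binding site.

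The 2 direct partners of the adhesion complex did not pass the test. Anks4b, the scaffold that joins harmonin to myosin 7b, stood at 249 ± 20.8 and 232 ± 54.9 CPM in controls and knockouts (SD, n = 3; log2 fold change -0.10, adjusted p = 0.76), and Calml4, a light chain of that motor, at 383 ± 108 and 287 ± 61.6 CPM (-0.42, adjusted p = 0.26). Calml4 fell by 0.86 with library-size scaling alone (adjusted p = 0.013). Of 6 relatives known from the Usher complex of hair cells, only Whrn and Cib2 had enough counts to be tested. Both fell, at means of 3.21 CPM or less; Whrn did not pass without control 482 (adjusted p = 0.059) or with the length and GC correction (0.058).

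Over 69 further genes of the brush border and terminal web, 63 were tested, of which 18 fell and 5 rose, beside 18.3% and 17.3% of all genes; their median was -0.38 on the log2 scale. With the length and GC correction 10 fell and 5 rose, beside 13.3% and 18% of all genes, and the median turned to 0.04 (all genes 0.10). With library-size scaling alone 29 fell and 1 rose, at a median of -0.84 (all genes -0.49). The counts by list are set against those same shares. Among other actin bundling and severing genes 3 of 7 tested fell and 1 rose. Those that fell were Avil (-4.99), the villin relative that is also a tuft cell marker, the gelsolin gene Gsn (-2.96) and Svil (-1.30, not called with the length and GC correction, adjusted p = 0.054). Vill rose (1.37) at a mean of 1.38 CPM in knockouts, with the call lost in 5 of 6 fits that left out a library. Scin, a villin relative at 350.3 ± 55.3 CPM in controls, had a log2 fold change of 0.24 (adjusted p = 0.47; -0.21 with library-size scaling alone). The plastin paralogs Pls3 (1.07) and Lcp1 (-0.69) and the ezrin paralogs Rdx (-0.61) and Msn (-0.72) did not pass and stood at under 20 CPM on average in either genotype, far below Pls1 and Ezr.

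Relatives of the tip complex went both ways: of 13, at a median of 0.03, 1 fell and 3 rose, where 18.3% of all genes fell and 17.3% rose. With library-size scaling alone the counts turned to 3 that fell and 1 that rose, where 30.3% of all genes fell and 7.54% rose. Without control 482 or control 483 1 rose, and 3 fell without control 486 or knockout 476, with DESeq2 and with no filter on low counts. Over all genes 1510 rose without control 482 and 1555 without control 483, against 2596 with all libraries. Those that fell numbered 2982 without control 486, 2350 without knockout 476, 2956 with DESeq2 and 3469 of 27205 with no filter, against 2752. Baiap2l1, which encodes the tip protein IRTKS, an EPS8 partner, stood at 65.6, 56.0 and 60.8 CPM in controls 482, 483 and 486, against 152, 195 and 109 CPM in knockouts 423, 476 and 477. It rose by 1.32 (SE 0.24, adjusted p = 0.0036). Its relative Baiap2l2 fell by 2.43 (SE 0.38, adjusted p = 0.0018), from 171, 117 and 76.7 CPM to 28.6, 27.1 and 12.1 CPM. Both kept their direction and call under library-size scaling, after removal of the length and GC trend, and in all 6 fits that left out a library. Capza1 (0.92) and Capza2 (0.91), actin capping protein subunits, rose but did not pass with library-size scaling alone (0.50 and 0.48, adjusted p of 0.098 and 0.086).

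Of 10 genes for ezrin relatives, their kinases and scaffolds, 4 fell and none rose, where 18.3% of all genes fell and 17.3% rose: the ezrin kinase genes Slk (-1.29) and Stk10 (-1.18), the scaffold gene Pdzk1 (-1.02) and Clic5 (-1.42). Stk10 did not pass without control 483, knockout 423 or knockout 477, or with the length and GC correction (adjusted p = 0.069). For Pdzk1, 41.7% of exon bases overlap other genes, and the effect of that overlap on its counts was not tested. Of 12 other myosins 4 fell, among them Myo7a (-1.57), Myo15b (-1.27) and Myo1e (-0.85). With the length and GC correction Myo7a still fell (-0.88, edgeR quasi-likelihood test, adjusted p = 0.0047). Myo15b (-0.38, adjusted p = 0.29) and Myo1e (-0.48, adjusted p = 0.14) did not pass there. Myo1e passed in 2 of 6 fits that left out a library. In this list 1 gene fell without knockout 477 or with the length and GC correction (1 also rose there), 2 fell without control 482, and 7 fell with library-size scaling alone. Of 10 terminal web genes 3 fell, the spectrin gene Sptan1 (-1.50), Pacsin2 (-0.96) and Lima1 (-0.82). In this list 1 fell without knockout 477 or with the length and GC correction, and 6 with library-size scaling alone. Over all genes, 1748 fell without knockout 477 and 1789 without control 482, against 2752 with all libraries. The shares were 13.3% with the length and GC correction and 30.3% with library-size scaling alone. Krt18 had a log2 fold change of 0.78 (adjusted p = 0.054). Of 7 genes of the apical trafficking route that fails in microvillus inclusion disease and its relatives, Vps33b fell (-1.41) and Rab11a rose (0.80). The Rab11a call was lost without control 482, control 483, knockout 476 or knockout 477, under library-size scaling (0.35, adjusted p = 0.18) and with the length and GC correction (0.67, adjusted p = 0.06). Stxbp2 (0.23, and -0.23 with library-size scaling alone) and Rab11fip1 (-0.21) did not pass.

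**Figure D4:**
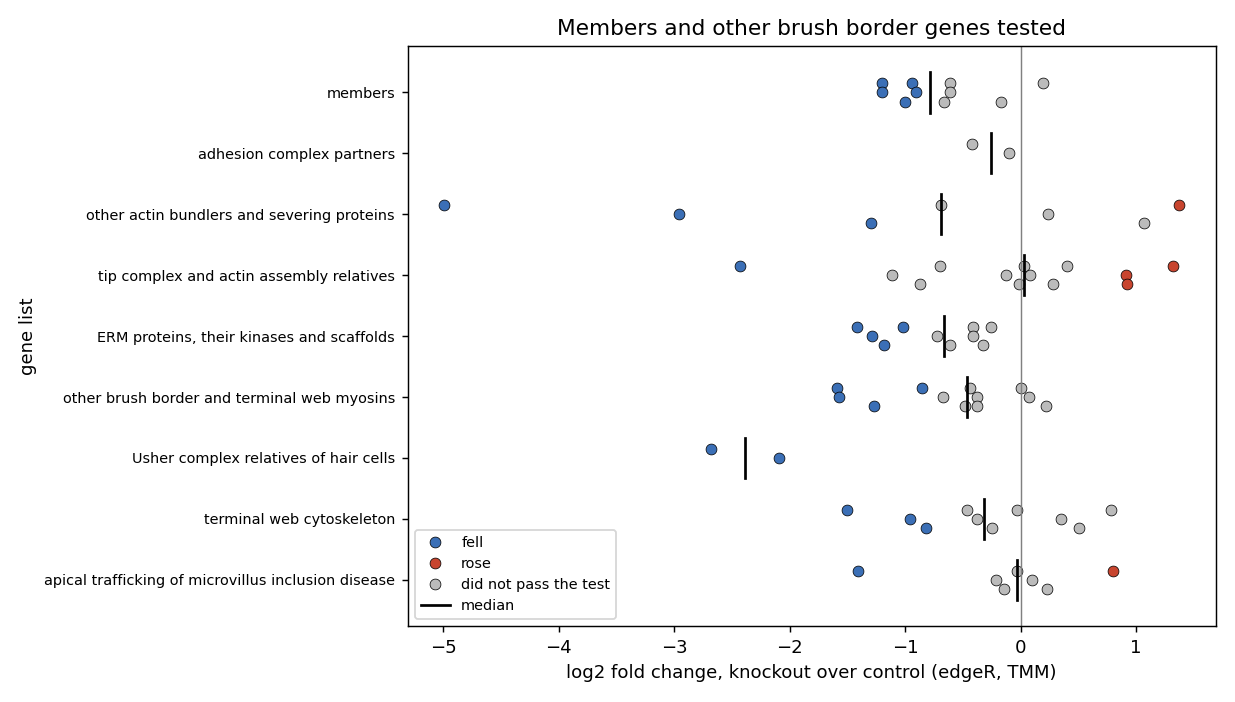
Log2 fold change of knockout over control (x axis) for the 10 members and the tested genes of each further list (y axis), blue where a gene fell, red where it rose and grey where it did not pass the test, with a bar at each list's median. The members' median is -0.79, and the tip complex relatives spread on both sides of zero from Baiap2l2 at -2.43 to Baiap2l1 at 1.32.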

How the data were processed

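Gene counts from 6 polyA RNA-seq libraries (3 control and 3 knockout mice) were used. The authors deposited whole-number counts per Ensembl gene, not normalized. Their second deposited table, log2 values after variance stabilisation, served 1 alternative. The submitters' processing notes name STAR 2.7.9a, fastp 0.21.0, Subread 1.6.2 with its featureCounts, DESeq2 1.23.10 and mm10; annotation and strand setting: not given in the sources used here. Of 55450 identifiers 55104 matched a symbol, and the rest took at most 0.0421% of a library. Exon lengths (union of all annotated exons), GC content and coordinates came from the GENCODE annotation of mm10.

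Counts were fitted in R 4.3.3 with edgeR 4.0.16 (filterByExpr, TMM, robust quasi-likelihood test, Benjamini-Hochberg over 15028 genes, threshold 0.05), with no covariate. CPM are TMM-scaled, and an SE is the log2 fold change over the square root of F. The fit and the length and GC correction (mgcv 1.9.3) were tested on simulated data. The simulated trend was with exon length alone, so removal of a GC trend was not tested. Within-library ratios used counts per kilobase of exon and a two-sided exact permutation test (SciPy 1.17.1). Within a genotype no pair of libraries agreed within counting error (chi-square over degrees of freedom at least 72.1), so each counted as 1 replicate. The p-values measure the spread between libraries, 1 per mouse. Alternatives were 2 scalings, no filter, DESeq2 1.42.0, limma-voom and limma-trend (limma 3.58.1), the 20 most abundant genes left out, the length and GC trend removed, and each library left out. The members, lists and tests were chosen with earlier results of these data known. Genes named outside the members were those of a 2-gene list, up to 4 with the smallest p in each other list, and the listed paralogs. The second targeted gene and 1 gene that the rule names are not reported here.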

Additional observations from a re-analysis of the deposited data

How the results depend on the processing

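Vil1 and Myo1a fell under all 14 alternatives, and calls gained or lost by the other members are given with each gene. Ezr, Pls1 and Cdhr2 gained a call only under library-size scaling alone, and Cdhr5 gained one there and with DESeq2. With library-size scaling alone, which moved the median log2 fold change of all genes from -0.06 to -0.49, 1133 genes rose and 4554 fell, 9 members fell, and 1 other brush border gene rose and 29 fell. After removal of the length and GC trend 1 member rose and 2 fell, and 10 other brush border genes fell. With 1 library left out, between 1510 and 2958 genes rose and between 1748 and 2982 fell, 3 to 5 members fell, and 1 to 4 other brush border genes rose and 12 to 20 fell. Eps8 changed sign with library-size scaling alone (-0.26) and without knockout 476 (-0.07), and Pls1 without knockout 423 (0.03); with 1 library left out Eps8 ran from -0.07 to 0.39 and Pls1 from -0.31 to 0.03. The cause of these shifts was not tested. Ratios to Vil1 separated the genotypes in 7 to 8 of 9 members with 1 library left out, in 3 of the 9 against the other members summed, and in 4 of the 9 against the summed pan-epithelial markers, a reference chosen after seeing the data. No paired analysis was possible because the animal numbers are not shared between genotypes. Every member had at least 1769 counts in each library. With 1 library per mouse, the spread between mice and that between library preparations cannot be told apart.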

Other observations

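After Myo1a, the genes averaging 500 CPM or more whose ratio to Vil1 varied least over the 6 libraries were Fcgbp, a goblet cell mucus gene (SD 0.144), and Myo15b (SD 0.152), with log2 fold changes of -1.10 and -1.27. Myo15b did not pass with the length and GC correction (-0.38, edgeR quasi-likelihood test, adjusted p = 0.29). Among the members, Ush1c (SD 0.177) and Myo7b (SD 0.188) ranked 69 and 87 of 15027 by this measure. Eps8 (SD 0.755) ranked 5919. These rankings were chosen after the values were seen.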
